A study of Mus musculus with 6 samples.

Results

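The PAR bZIP transcription factors *Dbp*, *Tef* and *Hlf* were described in RNA-seq of mouse pancreatic islets from FXR+/+ and FXR-/- mice. These 3 genes, of 19342 in the table of counts per gene, were chosen by name with their measured FXR-/- against FXR+/+ values in view, so their difference between genotypes is given as a description, with no test. FXR is the bile acid receptor encoded by *Nr1h4*. The 6 libraries comprise 3 of each genotype, named female 1, male 1 and male 2, and all mice were aged 3 months. The FXR-/- mice (C57Bl/6) are labelled as gene knockouts with no Cre or other agent named, the FXR+/+ mice are labelled wild type, and no treatment is named for either beyond isolation of the islets with collagenase P. The labels give neither the time of day at which islets were collected nor whether a library holds islets of 1 mouse or of several, so the spread between libraries may be partly technical.

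PAR bZIP factors carry a basic leucine zipper preceded by a region rich in proline and acidic residues, and they activate genes through a site called the D-box. They are output factors of the circadian clock: the activators BMAL1 (*Arntl*) and CLOCK act through E-boxes, and in liver, kidney and brain the transcripts of *Dbp*, *Tef* and *Hlf* rise and fall over the day, *Dbp* most steeply. NFIL3 (E4BP4), a bZIP repressor, binds the same D-box, and its transcript runs in the opposite phase.

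Gene counts summed to 20629306 to 30139235 a library. Levels are CPM, gene counts scaled to a common library size after TMM normalization. *Nr1h4* stood at 14.2, 13.6 and 12.2 CPM in FXR+/+ female 1, male 1 and male 2 and at 5.67, 7.63 and 5.81 CPM in the same order in FXR-/-, so transcript was still counted in the libraries labelled knockout, and the part of the gene that was deleted is not given in the sources used here. The 7 beta cell markers summed to between 185300 and 269500 CPM, and none was at 0 in any library. The 8 acinar markers, none at 0 in any library, summed to 92300 CPM in FXR+/+ male 1 and 102700 CPM in FXR-/- male 1, against 30340 to 60700 CPM in the other 4 libraries.

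The bases before the start sites are shown because these are the windows in which clock and FXR elements were searched. The windows are the 250 bases before 4 RefSeq start sites of the 3 genes in GRCm38.p6, read 5′ to 3′ on the strand of the gene. *Dbp* is on the plus strand of chromosome 7, with the window chr7:45704997-45705246 before a start site at 45705247. Other annotated transcripts of *Dbp* start within that window, and 159 of its bases lie in the first exon of *Dbp* in GENCODE vM21, so only the 91 bases before that exon, chr7:45704997-45705087, are printed. *Tef*, on the plus strand of chromosome 15, has a downstream start with the window chr15:81811164-81811413. The window of its upstream start, chr15:81802423-81802672, lies wholly within a GENCODE exon of *Tef* and is not printed. *Hlf* is on the minus strand of chromosome 11, with the window chr11:90390918-90391167. Capitals mark an E-box (CACGTG), a cyclic AMP response element (CRE, TGACGTCA) or a CCAAT box (CCAAT, or ATTGG on the other strand).
Dbp: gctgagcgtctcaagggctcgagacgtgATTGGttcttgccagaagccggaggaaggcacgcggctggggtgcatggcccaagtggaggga
Tef downstream start: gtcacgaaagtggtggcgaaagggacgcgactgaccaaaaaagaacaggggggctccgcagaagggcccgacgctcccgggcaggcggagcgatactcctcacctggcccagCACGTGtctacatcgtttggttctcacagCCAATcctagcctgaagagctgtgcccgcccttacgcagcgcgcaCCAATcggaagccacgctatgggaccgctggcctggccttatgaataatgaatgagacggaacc
Hlf: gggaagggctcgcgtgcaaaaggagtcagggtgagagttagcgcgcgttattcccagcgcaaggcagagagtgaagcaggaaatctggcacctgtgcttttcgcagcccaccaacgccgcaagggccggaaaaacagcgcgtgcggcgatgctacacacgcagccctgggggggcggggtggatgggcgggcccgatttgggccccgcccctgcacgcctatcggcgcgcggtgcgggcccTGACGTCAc

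An E-box was found 127 to 122 bases before the upstream start of *Tef* (−127 to −122) and again at −138 to −133 of its downstream start. CACGTG occurs in 6.02% of 32851 RefSeq windows of this length. *Hlf* held a CRE at −9 to −2, a motif found in 1.55% of windows. The CCAAT box, found in 33.8% of windows, was at −222 to −218 in *Dbp*, at −143 to −139 in the upstream window of *Tef*, and at −109 to −105 and −64 to −60 in its downstream window. The E-box variant CACGTT (3.85% of windows), the D-box as TTATGTAA or TTACGTAA (0.931%) and the FXR inverted repeat (GGTCA and TGACC with 1 base between, 0.0335%) were searched on both strands and these letters were not in any of the 4 windows. No motif searched overlapped another in them, and GC content was 60.4% to 67.2%.

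**Figure D1:**
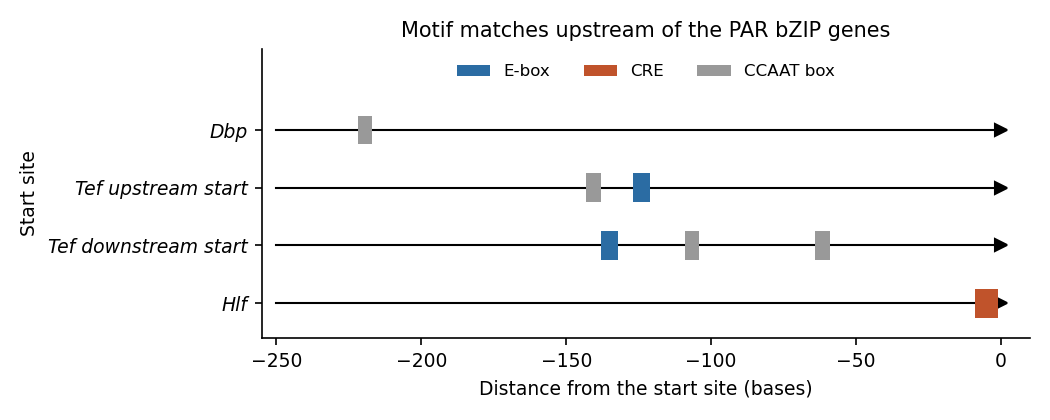
Motif matches in the 250 bases before each start site of *Dbp*, *Tef* and *Hlf*; the horizontal axis is the distance from the start site in bases, each line is 1 window and boxes mark the E-box, the CRE and the CCAAT box. Both windows of *Tef* hold an E-box, and the CRE of *Hlf* ends 2 bases before its start.

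*Dbp*, *Tef* and *Hlf* were all high in the male FXR+/+ libraries and low in the male FXR-/- libraries. The female libraries of both genotypes lay below the male FXR+/+ libraries. For *Tef* and *Hlf* they were above both male FXR-/- libraries, and for *Dbp* they lay between them. The largest range was that of *Dbp*, whose highest library was 10.2 times its lowest. The same ratio was 4.30 for *Tef* and 3.28 for *Hlf*.

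*Dbp* (NCBI gene 13170; chr7:45705100-45710203), the member whose transcript swings most over the day in other tissues, stood at 15.0, 98.6 and 57.0 CPM in FXR+/+ female 1, male 1 and male 2, from 352, 1990 and 1805 counts. In FXR-/- it stood at 20.3, 9.68 and 23.4 CPM in the same order, from 502, 184 and 555 counts. Both male FXR+/+ libraries were above all 4 others, FXR-/- male 1 was the lowest of the 6, and the genotypes overlapped because FXR+/+ female 1 lay within the FXR-/- range. The means were 56.9 ± 41.8 CPM in FXR+/+ and 17.8 ± 7.18 CPM in FXR-/- (SD, n = 3 each), a log2 fold change of −1.40 (SE 0.605) with sex in the fit.

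*Tef* (NCBI gene 21685; chr15:81802673-81826863), known with the other members for control of enzymes of vitamin B6 and drug metabolism, stood at 69.3, 151 and 165 CPM in FXR+/+ and at 65.7, 38.4 and 58.3 CPM in FXR-/-. Every FXR-/- library was below every FXR+/+ library, though the female libraries of the genotypes were close. The means were 128 ± 51.7 CPM and 54.1 ± 14.1 CPM (SD, n = 3 each), and the log2 fold change was −1.18 (SE 0.329).

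*Hlf* (NCBI gene 217082; chr11:90336535-90390917), also known as the fusion partner of E2A in a leukaemia, was the least abundant, at 8.44, 20.0 and 18.6 CPM in FXR+/+ and at 10.9, 6.10 and 7.95 CPM in FXR-/-. As with *Dbp*, the genotypes overlapped through FXR+/+ female 1, which was below FXR-/- female 1. The means were 15.7 ± 6.32 CPM and 8.33 ± 2.44 CPM (SD, n = 3 each), with a log2 fold change of −0.86 (SE 0.353). These are bulk libraries, so fewer cells with the transcript and less transcript per cell cannot be told apart.

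**Figure D2:**
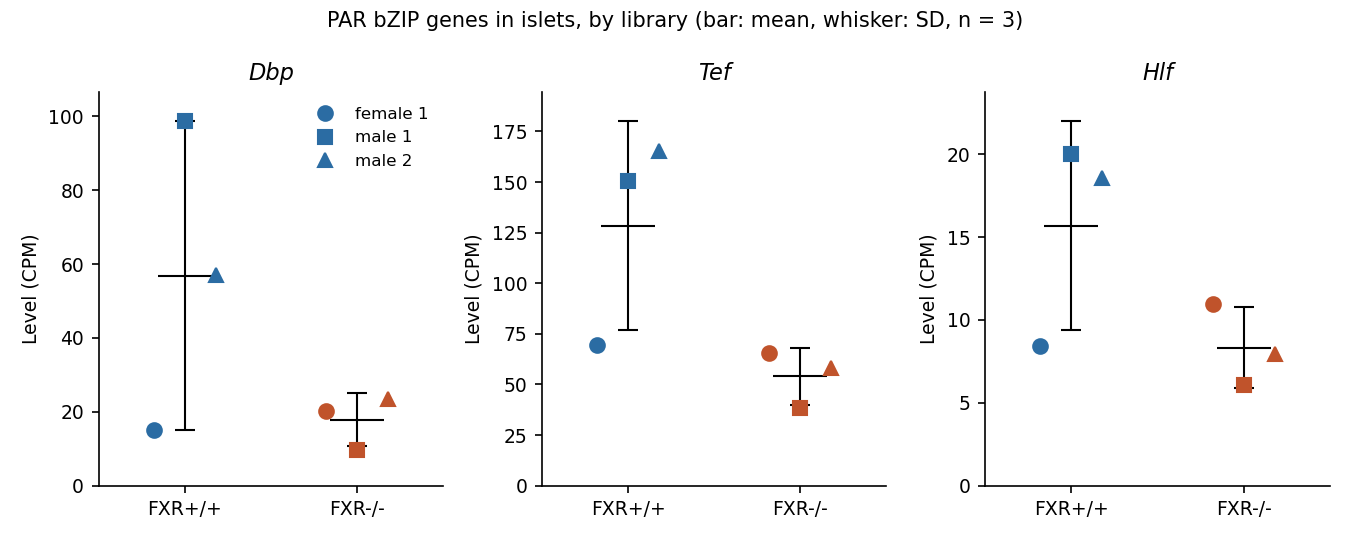
Levels of *Dbp*, *Tef* and *Hlf* in each library (vertical axes, CPM, starting at 0) for FXR+/+ and FXR-/-, with symbols for female 1, male 1 and male 2, a bar at the mean and a whisker of 1 SD (n = 3). In each panel the male FXR+/+ libraries are the highest, and FXR+/+ female 1 lies at the level of the FXR-/- libraries for *Dbp* and *Hlf* and just above them for *Tef*.

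Read against all genes, every FXR-/- library was below every FXR+/+ library for 1 of the 3 members, *Tef*, and for 7.37% of the 14619 genes tested. In males both FXR-/- libraries were below both FXR+/+ libraries for 3 of 3 members and for 21.4% of genes tested. Since the members were chosen on this contrast, nothing is read from these counts. Across all genes the edgeR quasi-likelihood test with sex called 0% of genes at an adjusted p under 0.05 (0 of 14619). At an unadjusted p under 0.05 it gave 905 genes higher and 608 lower in FXR-/-. With the replicate number as a block 24 genes (0.164%) were called, and DESeq2 called 177 (1.21%).

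Leaving out FXR-/- male 1, the library lowest for all 3 members, left log2 fold changes of −0.77 for *Dbp*, −0.84 for *Tef* and −0.55 for *Hlf*. Without FXR+/+ male 1 the value of *Dbp* was −0.92, and without either female library the values were −2.23 for *Dbp*, −1.71 for *Tef* and −1.46 for *Hlf*. All 3 members remained lower in FXR-/- with any 1 library left out. Where 1 female library is left out, the sex term takes up the other, so those fits compare the male libraries alone.

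Compared per kilobase of exon, *Dbp* and *Tef* were the main PAR bZIP transcripts of these islets and *Hlf* was a minor one. The length used joins every annotated exon of a gene, with or without reads, so the order of *Dbp* and *Tef* depends on it. Mean levels in FXR+/+ were 19.0 CPM per kb for *Dbp*, 16.3 for *Tef* and 2.35 for *Hlf*, and in FXR-/- they were 5.94, 6.88 and 1.25 CPM per kb. *Dbp* was the highest of the 3 in FXR+/+ male 1, at 59.8% of their summed CPM per kb, and in FXR-/- male 2, at 47.6%. *Tef* was the highest in the other 4 libraries, at 49.1% to 58.4%. *Hlf* held 5.44% to 10.1% throughout. Summed over the 3 genes the level was 15.1, 55.1 and 42.8 CPM per kb in FXR+/+ female 1, male 1 and male 2 and 16.8, 9.03 and 16.4 CPM per kb in FXR-/-. The male FXR+/+ libraries thus held at least 42.8 CPM per kb of PAR bZIP transcript and no other library more than 16.8.

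The question of whether the genotype difference was the same in both sexes rests on 1 female and 2 male libraries of each genotype. In males *Dbp* averaged 77.8 CPM in FXR+/+ and 16.5 CPM in FXR-/-, 4.71 times higher in FXR+/+, with a log2 fold change of −2.23 (SE 0.444). Male *Tef* was 3.27 times higher in FXR+/+, at 158 against 48.3 CPM (log2 −1.71, SE 0.202), and male *Hlf* 2.75 times higher, at 19.3 against 7.03 CPM (log2 −1.46, SE 0.182). The female pair gave log2 values of 0.44 for *Dbp*, −0.08 for *Tef* and 0.37 for *Hlf*, with no replicate.

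The female difference minus the male difference was 2.67 (SE 0.755) on the log2 scale for *Dbp*, 1.63 (SE 0.343) for *Tef* and 1.83 (SE 0.319) for *Hlf*. The interaction of genotype and sex in edgeR's quasi-likelihood test called 0% of the 14619 genes, 217 of them having an unadjusted p under 0.05, and the Benjamini-Hochberg adjusted p was 1.00 for all 3 members. The same interaction in DESeq2 called 3 genes (0.0205%), which were *Per3* (log2 2.09, adjusted p 0.0168), *Tef* (1.63, adjusted p 0.0168) and *Nr1d2* (1.17, adjusted p 0.0275). For *Hlf* and *Dbp* the DESeq2 adjusted p was 0.257 and 1.00. The same 6 libraries enter this interaction and the contrast on which the members were chosen, the female arm is 1 library of each genotype, and edgeR did not make the call, so a difference between the sexes was not shown.

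Sex itself, with genotype in the fit, gave log2 differences of female minus male of −0.85 (SE 0.650) for *Dbp*, −0.30 (SE 0.349) for *Tef* and −0.21 (SE 0.376) for *Hlf*. None was called by edgeR (adjusted p 0.747, 0.829 and 0.901), where 8 genes (0.0547%) were. Without FXR+/+ female 1 these differences turned positive, at 0.30, 0.44 and 0.64, so their direction rests on that library.

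**Figure D3:**
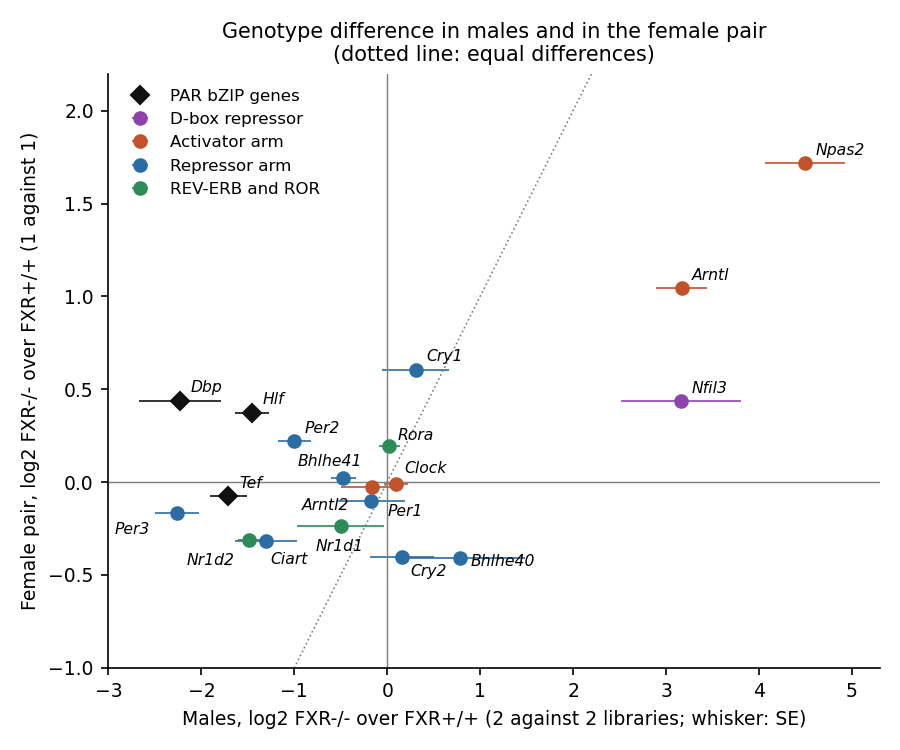
Log2 of FXR-/- over FXR+/+ in males (horizontal axis, 2 against 2 libraries, whisker 1 SE) and in the female pair (vertical axis, 1 against 1) for *Dbp*, *Tef*, *Hlf* and the clock genes listed; the dotted line marks equal differences. *Dbp*, *Tef* and *Hlf* lie between −2.23 and −1.46 in males and between −0.08 and 0.44 in females, and *Npas2*, *Arntl* and *Nfil3* lie far to the right.

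*Nfil3*, the repressor that competes with the members for the D-box, was lowest in the male FXR+/+ libraries, where the members were highest. It stood at 18.3, 12.0 and 3.72 CPM in FXR+/+ female 1, male 1 and male 2 and at 24.7, 99.7 and 39.9 CPM in FXR-/-. Every FXR-/- library was above every FXR+/+ library, as for 8.02% of genes tested, and the log2 fold change of 2.29 (SE 0.717) did not pass the test (edgeR adjusted p 0.430). It was 1.57 without FXR+/+ male 2 or without FXR-/- male 1, and 3.16 without either female library. FXR-/- male 1 was the highest library for *Nfil3* and the lowest for *Dbp*, *Tef* and *Hlf*.

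The ratio of the summed members to *Nfil3*, each in CPM per kb, was 1.67, 9.27 and 23.3 in FXR+/+ female 1, male 1 and male 2. In FXR-/- it was 1.38, 0.184 and 0.833. By these lengths the summed members were above the repressor in all 3 FXR+/+ libraries and in FXR-/- female 1. They were below it in both male FXR-/- libraries. The lengths, 2993, 7867, 6681 and 2026 bases for *Dbp*, *Tef*, *Hlf* and *Nfil3*, join every annotated exon of each gene. Shorter lengths for the members would raise the ratio, so its side of 1 in FXR-/- male 2 (0.833) depends on that choice.

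Among the genes that drive the clock, *Arntl* (BMAL1) and its partner *Npas2* were low where the members were high. *Arntl* stood at 10.7, 3.57 and 2.30 CPM in FXR+/+ and at 22.1, 30.2 and 22.2 CPM in FXR-/-, with the lowest values in the male FXR+/+ libraries and no overlap. Its log2 fold change of 2.43 (SE 0.442) had an edgeR adjusted p of 0.225 and was called by DESeq2 (adjusted p 0.00662). With 1 library left out it ranged from 1.93 (without FXR+/+ male 2) to 3.17 (without either female library). *Npas2*, a paralogue of *Clock*, stood at 1.49, 0.496 and 0.189 CPM in FXR+/+ and at 4.90, 8.15 and 6.52 CPM in FXR-/-, also without overlap. Its log2 fold change of 3.31 (SE 0.566) had an edgeR adjusted p of 0.225 and was called by DESeq2 (adjusted p 9.31e-07). Left-out values ran from 2.61 without FXR+/+ male 2 to 4.50 without either female library. *Clock* and *Arntl2*, the other members of the activator arm, had log2 fold changes of 0.06 and −0.11.

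In the repressor arm, which holds the PER and CRY inhibitors of BMAL1 and CLOCK, *Per3* was the gene most like the members. It stood at 20.0, 55.8 and 65.6 CPM in FXR+/+ and at 17.8, 9.62 and 15.6 CPM in FXR-/-, a log2 fold change of −1.59 (SE 0.423, edgeR adjusted p 0.369), which was −1.17 without FXR-/- male 1 and −2.26 without either female library. *Per2*, *Ciart* and *Bhlhe41*, with log2 fold changes of −0.60, −1.01 and −0.31, were also highest in the male FXR+/+ libraries. *Per1* (−0.15), *Cry1* (0.40), *Cry2* (−0.03) and *Bhlhe40* (0.40) did not share that order. Of the 8 genes 0 were called, and at an unadjusted edgeR p under 0.05 the arm gave 4 lower and 0 higher. Over all 14619 genes tested 608 were lower and 905 higher. *Per2* (edgeR unadjusted p 0.0467) and *Bhlhe41* (0.0494) passed only narrowly.

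Among REV-ERB and ROR receptors, which repress and activate *Arntl* and *Nfil3*, *Nr1d2* (REV-ERB beta) ran with the members. It stood at 86.1, 157 and 156 CPM in FXR+/+ and at 69.4, 51.1 and 60.9 CPM in FXR-/-. Its log2 fold change of −1.10 (SE 0.225) had an edgeR adjusted p of 0.266 and was called by DESeq2 (adjusted p 0.0479). *Nr1d1* (REV-ERB alpha) was highest in male 1 of each genotype. It stood at 52.3, 160 and 56.6 CPM in FXR+/+ and at 44.4, 94.25 and 58.8 CPM in FXR-/-, and its log2 fold change was −0.41. *Rora* had a log2 fold change of 0.08, and *Rorb* was too low to test.

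Over the 21 tested genes of the clock lists other than the members, edgeR called 0. An unadjusted edgeR p under 0.05 was found for 3 higher and 5 lower, beside 905 higher and 608 lower of all 14619 genes. The median log2 fold change was −0.03 for these genes and 0.01 over all 14619. An ordering chosen after the values were seen placed both male FXR+/+ libraries above the other 4 for 6 of the 21 (*Per2*, *Per3*, *Ciart*, *Bhlhe41*, *Nr1d2* and the ubiquitin ligase gene *Btrc*), beside 6.31% of all genes tested. It placed them below the other 4 for 3 of the 21 (*Nfil3*, *Arntl* and *Npas2*), beside 6.66% of all genes. The 5 kinases and ligases of the clock had log2 fold changes between −0.19 and 0.10.

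**Figure D4:**
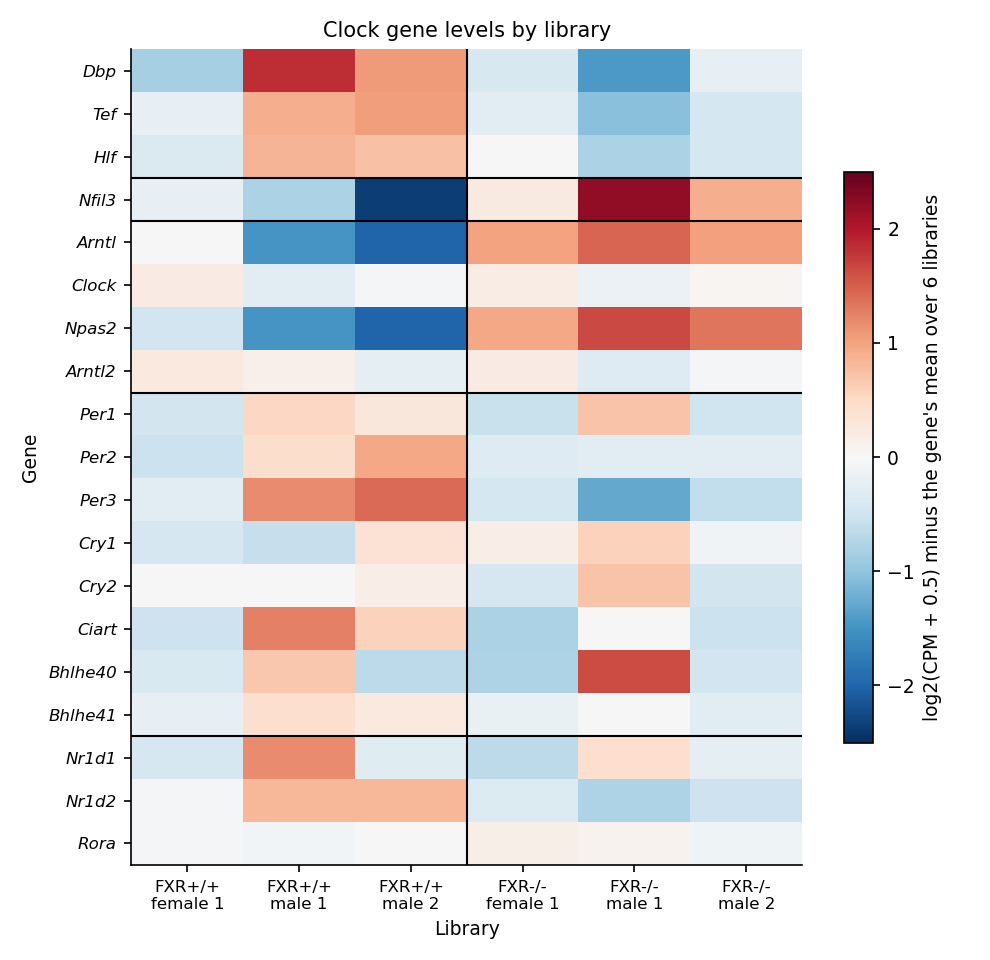
Levels of the members and of the clock genes listed, with 1 column for each library and 1 row for each gene; colour is log2(CPM + 0.5) minus the mean of that gene over the 6 libraries, red above and blue below. *Dbp*, *Tef*, *Hlf*, *Per3* and *Nr1d2* are red in the male FXR+/+ columns, where *Nfil3*, *Arntl* and *Npas2* are blue.

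The genes whose profiles over the 6 libraries were most like the members were ranked by root mean square distance on log2(CPM + 0.5), each profile centred on its own mean. For *Tef* the nearest were *Nr1d2* (distance 0.17), *Hlf* (0.21) and *Per3* (0.23), beside a spread of *Tef* about its own mean of 0.75. For *Hlf* the nearest were *Nr1d2* (0.20), *Tef* (0.21) and *Six4* (0.23), beside a spread of 0.61. For *Dbp* they were *Per3* (0.42), *Tef* (0.50) and *Hlf* (0.57), beside a spread of 1.12. The reverse did not hold: *Dbp* was at rank 53 among the genes nearest to *Tef* and at rank 3793 for *Hlf*. Its distance from *Hlf* (0.57) was close to the spread of *Hlf* itself (0.61). The points compared share libraries and depth, and no test was made of likeness.

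The relatives and the known targets of the PAR bZIP factors did not share their order of libraries. Of the 4 C/EBP genes, bZIP factors outside the clock, 0 were called, with log2 fold changes from −0.17 (*Cebpg*) to 0.72 (*Cebpd*). FXR-/- male 1, the lowest library for the members, was the highest for *Cebpb* (46.3 CPM), *Cebpd* (43.1 CPM) and *Bhlhe40* (87.7 CPM). Those genes stood at no more than 26.1, 17.0 and 44.9 CPM in the other 5 libraries. *Cebpb* and *Cebpd* are known to respond to stress and inflammation, and what these genes share with the members' values in that library was not tested.

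Of 12 targets known from liver and brain, 11 were counted and 4 were high enough to test. Pyridoxal kinase (*Pdxk*), cytochrome P450 oxidoreductase (*Por*), *Alas1* of haem synthesis and aromatic amino acid decarboxylase (*Ddc*) had log2 fold changes of −0.14 (SE 0.157), −0.11 (SE 0.100), 0.14 (SE 0.100) and 0.31 (SE 0.107). None was called by edgeR (adjusted p from 0.445 to 0.735). *Ddc* stood at 323, 265 and 265 CPM in FXR+/+ and at 332, 362 and 362 CPM in FXR-/-, lowest in the male FXR+/+ libraries, where the members were highest. *Nr1i3* and *Aadac* were at 0.442 CPM or below in every library. *Cyp2a5*, *Cyp2b10*, *Cyp2c37*, *Cyp3a11* and *Cyp7a1* were listed at 0 in at least 4 of the 6 libraries. Their counts lay in FXR+/+ male 2, at 9, 2, 2, 37 and 2 in that order, apart from 1 count of *Cyp2b10* in FXR-/- male 1.

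The counts on exons, in a second table with GRCm38 positions, showed where within the genes the reads lay. For *Tef* the last exon, of 3398 bases, held 90.8% to 94.0% of the exon counts in every library, with 1234, 2250 and 4049 counts in FXR+/+ and 1191, 541 and 1071 in FXR-/-. The first exon of the upstream start of *Tef* had 0 to 2 counts in any library and that of the downstream start 6 to 28, so few reads told the starts apart. For *Hlf* the last exon, of 4440 bases, had 154, 280 and 412 counts in FXR+/+ and 176, 79 and 130 in FXR-/-. The male log2 ratio of FXR-/- over FXR+/+ was −1.70 on the last exon of *Tef* and −1.48 on that of *Hlf*, beside −1.71 and −1.46 for the genes.

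Of the 4 exons of *Dbp* in GENCODE vM21 the table held the first 3. The last, from 45709665 to 45710203 of chromosome 7, lies wholly within an exon of *Sphk2*, and the 3 listed exons summed to 40.1% to 58.7% of the gene count. Exon 1 had 63, 477 and 491 counts in FXR+/+ and 106, 36 and 137 in FXR-/-, exon 2 had 60, 493 and 266 and then 89, 43 and 117, and exon 3 had 18, 80 and 63 and then 24, 29 and 33. The male log2 ratios were −2.35, −2.19 and −1.03. The smaller value of exon 3 came with FXR-/- male 1, where that exon held 26.9% of the exon counts of *Dbp* (29 of 108), against 7.62% to 12.8% in the other 5 libraries.

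**Figure D5:**
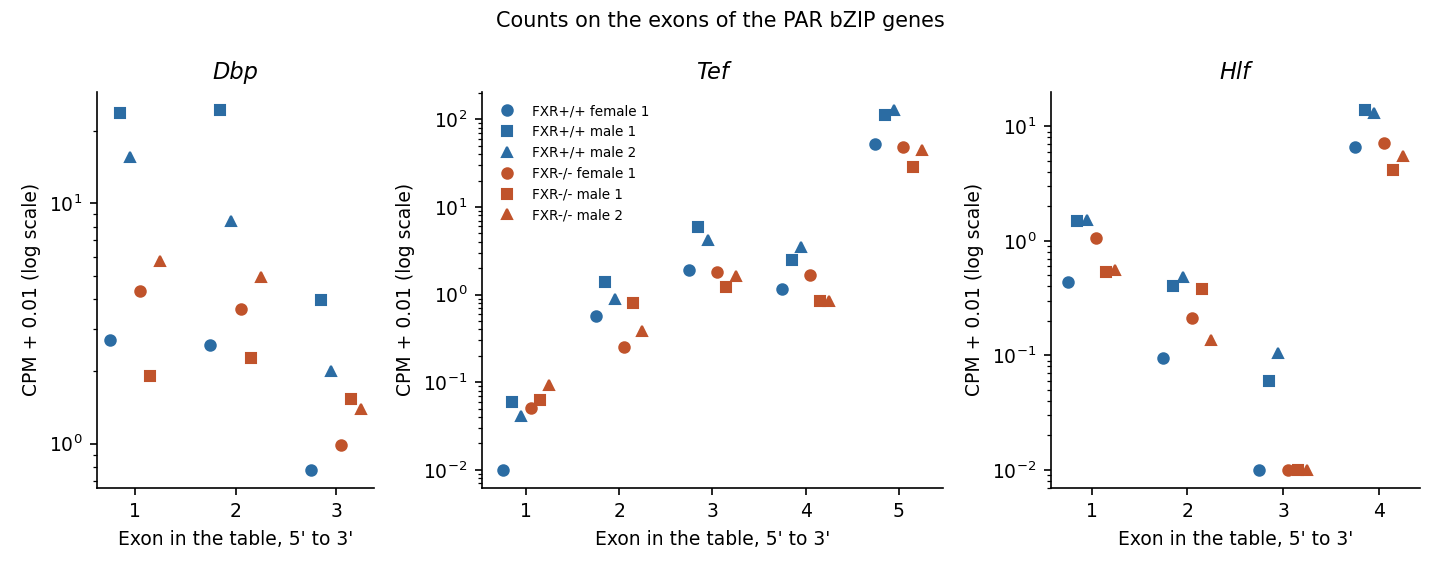
Counts on each exon of *Dbp*, *Tef* and *Hlf* as CPM + 0.01 on a log scale (vertical axes), with exons in the order of transcription (horizontal axes) and a symbol for each library. On exons 1 and 2 of *Dbp* and the last exons of *Tef* and *Hlf* the male FXR+/+ libraries are the highest; the sparse exons, down to 0 counts, scatter more.

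Of the genes beside the members, *Sphk2*, a sphingosine kinase gene, shares 741 bases with *Dbp*. It was lowest in the male FXR+/+ libraries, where *Dbp* was highest, and highest in the male FXR-/- libraries. *Sphk2* stood at 55.3, 44.8 and 47.0 CPM in FXR+/+ and at 54.3, 66.3 and 65.3 CPM in FXR-/-, a log2 fold change of 0.34 (SE 0.119, edgeR adjusted p 0.451). Reads in the shared bases cannot be told apart without strand, which the sources used here do not give for the counting. *Car11*, 412 bases from *Dbp*, *Rpl18* and *Mmd*, the nearest counted gene to *Hlf* on 1 side, had log2 fold changes of 0.27, 0.18 and 0.14. The genes nearest to *Tef* were not in the count table.

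Markers of other cell types were summed in each library. The 4 endothelial markers summed to 323 to 403 CPM in FXR+/+ and 416 to 656 CPM in FXR-/-, the 5 macrophage markers to 92.0 to 114 and 118 to 139 CPM, and the 4 ductal markers to 17.2 to 32.2 and 44.6 to 51.1 CPM, so these sums did not overlap between genotypes. The 5 stellate and fibroblast markers summed to 41.8 to 145 CPM in FXR+/+ and 114 to 141 CPM in FXR-/-, with overlap. The sums of the 4 alpha markers (20310 to 35370 and 25120 to 36020 CPM) overlapped too. So did those of the 2 delta markers (2965 to 4960 and 4016 to 5432 CPM). None of these markers was at 0 in any library. *Cftr* was too low to test, and edgeR called none of the rest, as it called 0 of all 14619 genes. At an unadjusted edgeR p under 0.05, 4 of 4 endothelial, 3 of 3 tested ductal, 3 of 5 macrophage and 2 of 7 beta markers were higher in FXR-/-. None of the 5 stellate and fibroblast, 8 acinar, 4 alpha or 2 delta markers was. Over all genes 905 were higher and 608 lower. Every FXR-/- library was above every FXR+/+ library for 2 endothelial, 1 ductal, 2 macrophage and 1 beta markers, beside 8.02% of genes. The acinar sum was 34250, 92300 and 30340 CPM in FXR+/+ female 1, male 1 and male 2. In FXR-/- it was 43600, 102700 and 60700 CPM in the same order. Male 1 was thus the highest acinar library of each genotype. *Dbp* and *Hlf* were highest in FXR+/+ male 1, *Tef* was highest in FXR+/+ male 2, and all 3 were lowest in FXR-/- male 1. The part of cell composition in the members' values was not tested, and neither was that of the time of collection.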

How the data were processed

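Islet RNA of 6 mouse libraries, 3 FXR+/+ and 3 FXR-/-, was enriched for poly(A) and sequenced. The authors deposited whole-number counts per gene for 19342 genes and counts per exon, both without normalization; HISAT is named in the submitters' processing notes, and the counting rule and its use of strand are not given in the sources used here. The authors also deposited their own comparison of the genotypes (mean, fold change, p and q values), which was not used. Genotype, sex and replicate number were taken from the labels.

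The test of gene counts was edgeR 4.0.16 (R 4.3.3), after filterByExpr by genotype (minimum count 10, minimum total 15; 14619 genes, all 3 members among them), with TMM scaling and the quasi-likelihood test (glmQLFit, glmQLFTest) with sex and genotype. There were 3 residual degrees of freedom and 4.43 prior degrees of freedom. An edgeR SE is the size of the log2 value divided by the square root of the F statistic of its test. It is not a spread measured between replicates, and for the genotype difference of the members it is given as a scale only. P-values were adjusted by Benjamini and Hochberg over all genes tested and called under 0.05. The script was tested on simulated data. A female minus male term and an interaction were tested the same way. Alternatives were DESeq2 1.42.0, other scalings, filters and dispersion estimates, no sex term, males alone, summed exon counts, the replicate block, and each library left out in turn. Exon lengths came from GENCODE vM21 (GRCm38), and upstream sequences and gene positions from RefSeq (GRCm38.p6), where all 3 genes were matched.

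Same-numbered libraries deviated together from their genotype means (r across genes 0.361 for female 1, 0.367 for male 1 and 0.323 for male 2, against 0.0200 or below for other pairs). The numbers, which come from the labels, were therefore used as a block in an alternative fit, and the main fit holds sex without the block. Deviations cancel within a genotype, so positive values for same-numbered pairs push the other pairs down. Same-numbered libraries also share sex for female 1 and high acinar RNA for male 1, so a true pairing was not shown. The block is printed where it changed a count or a call, and for clock genes whose main-fit adjusted p is given.

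The members and the gene lists were chosen with earlier results of these data known. The genes named are the members, all genes of the clock, C/EBP, target and marker lists, the genes next to the members and those with the most alike profiles. A gene of these lists is not reported here. With 20629306 to 30139235 counts a library, the members had at least 116 counts in each, and CPM is those counts over the TMM-scaled library size.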

Additional observations from a re-analysis of the deposited data

Results flagged for a closer look

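The difference between the sexes in the genotype effect of *Tef* passed the threshold in DESeq2 and not in edgeR, and it was not shown. The log2 fold change of FXR-/- over FXR+/+ in the female pair minus that in males was 1.63 in both tools, with an adjusted p over all genes tested of 0.0168 in DESeq2 and 1.00 in edgeR's quasi-likelihood test. *Tef* stood at 69.3 CPM in FXR+/+ female 1 and 65.7 CPM in FXR-/- female 1, and the female difference rests on these 2 libraries. *Tef* was also chosen on values of the same 6 libraries, so neither p is independent evidence.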

How the results depend on the processing

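The members were lower in FXR-/- under every alternative run. For the genotype difference, a fit with 1 female library left out repeats the comparison of males alone and is not a separate check. With 1 library left out, the log2 fold change ranged from −2.23 to −0.77 for *Dbp*, from −1.71 to −0.84 for *Tef* and from −1.46 to −0.55 for *Hlf*. In males alone *Hlf* was −1.46, beyond its replicate spread from −0.86. The female minus male difference ranged from −2.37 to 0.30 for *Dbp*, from −1.19 to 0.44 for *Tef* and from −1.19 to 0.64 for *Hlf*, positive without FXR+/+ female 1. The interaction of *Tef* was 1.63 in DESeq2, past the threshold (adjusted p 0.0168), and 1.36 to 1.96 with a library left out in edgeR, short of it.

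Genes called between genotypes numbered 0 in the edgeR fit and with any library left out, 24 with the replicate block, 177 with DESeq2 and 4 with exon counts summed; the cause was not tested. The block changed no call of a clock gene, and it called *Nr1h4* (edgeR adjusted p 0.0437). For the clock genes whose main-fit adjusted p is printed, the edgeR adjusted p with the block was lower. It was 0.0535 for *Npas2*, 0.0609 for *Arntl*, 0.0797 for *Nr1d2*, 0.104 for *Nfil3* and 0.121 for *Per3*. With library size alone the median log2 of all genes moved from 0.01 to −0.09, and genes at an unadjusted p under 0.05 went from 905 higher and 608 lower to 437 higher and 1070 lower.

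For 16 other clock genes 252 of 271 values kept direction and side of the threshold and 3 passed it (*Arntl*, *Npas2* and *Nr1d2* in DESeq2). The other 16 changed sign, and in no fit was their difference called. With library size alone *Clock* was −0.037 and *Rora* −0.019. *Arntl2* was 0.11 with exon counts summed. *Cry2* was 0.0016 without the sex term, 0.16 in males alone and 0.0057 with exon counts summed. With 1 library left out, the range was −0.019 to 0.12 for *Clock*, −0.21 to 0.02 for *Arntl2*, −0.56 to 0.14 for *Per1*, −0.49 to 0.20 for *Cry2*, −0.55 to 0.78 for *Bhlhe40* and −0.73 to 0.14 for *Nr1d1*.

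The female arm has no replicate, so a female value carries no spread of its own. Counts of *Npas2* and of the sparse exons limit their precision.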
